A study of Mus musculus with 7 samples.

Results

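The effect of diet on the ovarian transcriptome was examined in Abcg5/g8 knockout mice, which lack 2 sterol transporter genes. The comparison used 5 of the 7 libraries of the study, chosen by their titles. These were 2 ovary libraries from fertile knockout mice fed the VOFD diet and 3 from infertile knockout mice fed the CD diet. The 2 libraries from fertile wild type mice fed the CD diet are given beside them. They entered the test only through the filter on low values and the shared estimate of spread. All mice were female and 8 to 12 weeks old, and each ovary was homogenised by itself. The sources used here give neither the full diet names nor the strain, the length of feeding or how the knockout was made. Fertility went with diet in all 5 knockout libraries, so the effects of diet and of fertility cannot be told apart. Nor do they say that each library came from another animal, so p-values reflect only how these samples varied, which may be technical. The groups are written KO VOFD, KO CD and WT CD.

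Of 34866 genes in the deposited table, 15487 reached 1 TPM in at least 2 of the 7 libraries and were tested, and 14387 of them were protein coding. TPM values are shares of a library's transcripts, corrected for gene length and scaled to a fixed total, so the depth of the libraries is unknown. The 5 knockout libraries held between 14568 and 14982 genes at 1 TPM or more. Markers of the ovary were present in all 7 libraries. Inha, an inhibin subunit gene of granulosa cells, was at 1025 and 1530 TPM in KO VOFD, at 879, 3046 and 3410 TPM in KO CD and at 1386 and 1058 TPM in WT CD. Zp3, which encodes an egg coat protein, lay between 48.2 and 133 TPM over all libraries. Abcg5 and Abcg8 stayed under 0.213 TPM in every library, wild type included, so their levels cannot check the genotype. The KO CD libraries stood apart from each other. On the first principal component (39.7% of the variance) the KO VOFD libraries lay at -15.1 and -15.6, and KO CD libraries 1, 2 and 3 at -7.21, 19.6 and 65.5. On the second (18.8%) KO CD library 1 lay alone at -45.1.

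After ovulation the ruptured follicle turns into the corpus luteum, a gland that makes progesterone from cholesterol. Luteal cells take cholesterol from lipoproteins, make it themselves and store it as esters. Prostaglandin F2alpha acts on luteal cells at the end of their life, when progesterone is also broken down within the gland. Cells sense their sterol content through the transcription factor SREBP2, which raises sterol synthesis and low-density lipoprotein (LDL) uptake when sterols are scarce, and through LXR, which raises sterol export when oxidised sterols are abundant. ABCG5 and ABCG8 together export plant sterols and cholesterol, mainly in liver and intestine.

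In ovaries of knockout mice on VOFD the genes for the prostaglandin F receptor (Ptgfr) and the progesterone-inactivating enzyme AKR1C18 were far above their levels in knockout mice on CD, and the receptor genes Tnfrsf9 and Ramp1 were higher too. Over all genes 7 passed the threshold (limma, Benjamini-Hochberg adjusted p under 0.05), which is 0.0452% of those tested, with 6 higher (0.0387%) and 1 lower (0.00646%) in KO VOFD. At an unadjusted p under 0.05 there were 1230 genes (7.94%), of which 443 were higher (2.86%) and 787 lower (5.08%). The fold changes leaned downward, with 36.7% positive and a median of -0.10 on the log2(TPM + 1) scale. Median-of-ratios scaling moved that median to 0.0023.

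Ptgfr encodes the receptor through which prostaglandin F2alpha acts on luteal cells (ENSMUSG00000028036.6, GRCm38 chromosome 3, 151796502 to 151837630). It was at 193 and 133 TPM in KO VOFD, at 3.12, 3.22 and 6.17 TPM in KO CD and at 129 and 259 TPM in WT CD. The KO VOFD libraries thus lay within the wild type range, and every KO CD library lay far below. The log2 fold change was 5.01 (SE 0.36, limma adjusted p = 0.00292), and the gene passed in each of 19 alternative analyses.

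Akr1c18, the gene of the enzyme that converts progesterone to an inactive form (ENSMUSG00000021214.14, chromosome 13, 4132615 to 4150654), was at 128 and 596 TPM in KO VOFD. KO CD libraries had 7.79, 1.54 and 1.62 TPM, and WT CD libraries 165 and 238 TPM. The groups did not overlap, but the KO VOFD libraries differed several-fold from each other. The log2 fold change was 6.16 (SE 0.69, limma adjusted p = 0.0323). The call was lost without KO VOFD library 2 (0.107), KO CD library 2 (0.168) or 3 (0.105), or either WT CD library (0.108). It was also lost with a pseudocount of 0.1 TPM (0.0587), no filter (0.205), median-of-ratios (0.0651) or quantile (0.0751) scaling, the 5 knockout libraries alone (0.111), no variance trend (0.069) and the replicate number as a block (0.0964), so Akr1c18 passed in 7 of 19 alternatives.

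Tnfrsf9 encodes 4-1BB, a costimulatory receptor of the tumour necrosis factor (TNF) receptor family (ENSMUSG00000028965.13, chromosome 4, 150914562 to 150946102). It was at 18.7 and 13.5 TPM in KO VOFD, at 0.712, 0.745 and 0.190 TPM in KO CD and at 11.4 and 26.2 TPM in WT CD (log2 fold change 3.47, SE 0.36, limma adjusted p = 0.0262). Ramp1, whose product pairs with a receptor to bind calcitonin gene-related peptide (CGRP; ENSMUSG00000034353.14, chromosome 1, 91179822 to 91225196), was at 21.7 and 29.3 TPM in KO VOFD, 4.78, 3.80 and 2.72 TPM in KO CD, and 26.9 and 36.5 TPM in WT CD (2.48, SE 0.26, adjusted p = 0.0262). For both genes all 3 KO CD libraries were lowest of the 7. Tnfrsf9 lost its call without KO VOFD library 1 (adjusted p = 0.311) or 2 (0.111) or KO CD library 2 (0.101) or 3 (0.0710), and with a pseudocount of 0.1 TPM (0.0533), no filter (0.187) or the replicate block (0.062). Ramp1 lost it without KO VOFD library 1 (0.175) or 2 (0.258), KO CD library 2 (0.115), or WT CD library 1 (0.0777) or 2 (0.0791), and with no filter (0.121) or the 5 knockout libraries alone (0.09). Each passed in 12 of 19 alternatives.

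**Figure D1:**
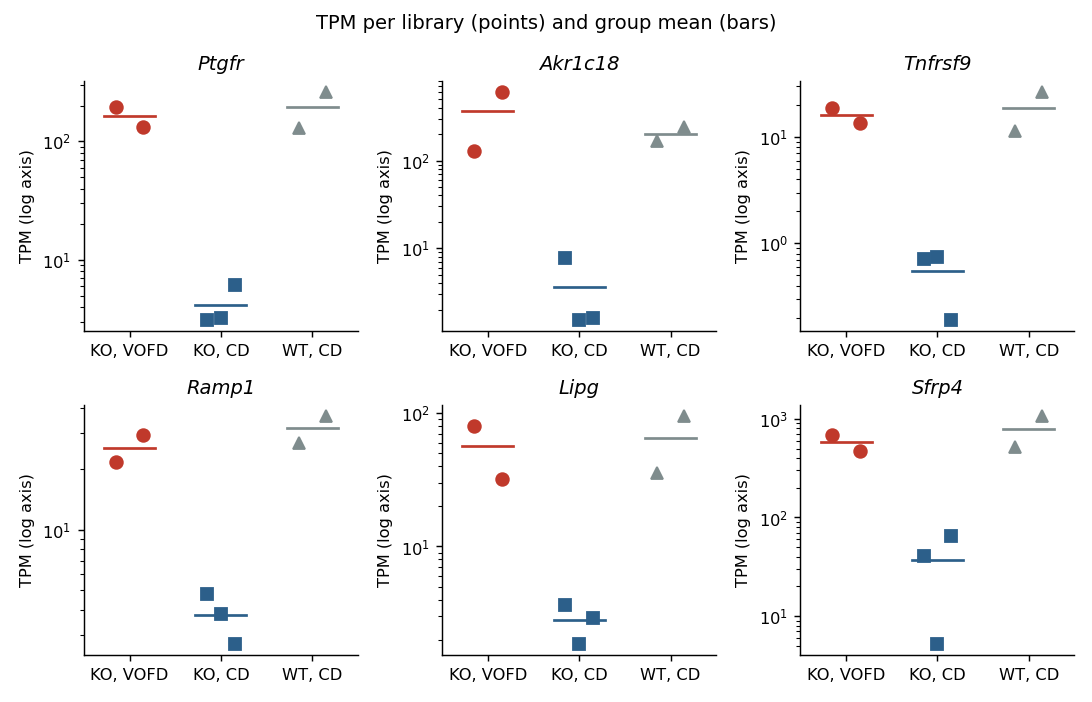
TPM per library (points, log axis) and group means (bars) for Ptgfr, Akr1c18, Tnfrsf9 and Ramp1, which passed the threshold, and for Lipg and Sfrp4, which did not. KO VOFD is on the left, KO CD in the middle and WT CD on the right. In all 6 panels the KO CD libraries lie below the others.

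The other higher calls were sequences with close relatives elsewhere in the genome, and their counts are uncertain. Gm16232, a processed pseudogene (ENSMUSG00000090040.1, chromosome 3, 152876051 to 152876217), was at 7.14 and 6.57 TPM in KO VOFD, was listed at 0 in all 3 KO CD libraries, and was at 1.85 and 2.33 TPM in WT CD (limma adjusted p = 0.00565). Its call was lost without KO VOFD library 1 (0.151) or 2 (0.0719). Ighv1-62-1, an immunoglobulin heavy chain variable segment (ENSMUSG00000102313.1, chromosome 12, 115386697 to 115387128), was at 3.89 and 4.84 TPM in KO VOFD and was listed at 0 in the other 5 libraries (adjusted p = 0.0262). Without 1 library it kept its call only where KO CD library 1 was the one left out, and its adjusted p was between 0.0674 and 0.281 in the other 6 fits. Ighv1-62-1 lost it too with a pseudocount of 0.5 TPM (0.0545) or 0.1 TPM (0.216), the 5 knockout libraries alone (0.108) and the replicate block (0.102), and passed in 8 of 18 alternatives. A fold change against libraries listed at 0 depends on the pseudocount and is not given.

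Gm12191, the only gene with a lower call, is a processed pseudogene copy of Rpl30, which encodes a protein of the large ribosomal subunit. Gm12191 (ENSMUSG00000083061.1, chromosome 11, 49678710 to 49679057, minus strand) was at 2.02 and 0.000164 TPM in KO VOFD, at 969, 1343 and 817 TPM in KO CD, and at 0.0130 and 0 TPM in WT CD. The log2 fold change was -9.20 (SE 0.42, limma adjusted p = 0.000156), and the call held in all 18 alternatives that tested the gene. With KO VOFD this low, its size depended on the pseudocount, at -9.83 with 0.5 TPM and -11.1 with 0.1 TPM. Over its 348 bases it matched the coding sequence of Rpl30 (chromosome 15, 34440505 to 34443640, minus strand) at 99.71%, with the single substitution G96A, counted from the A of the start codon with the base of Rpl30 first. The stretch around that base, positions 66 to 126 in the GRCm38 reference, shows how little separates the copies, and the capital marks the substituted base.
Gm12191: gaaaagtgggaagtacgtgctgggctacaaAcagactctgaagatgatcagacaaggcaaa
Rpl30: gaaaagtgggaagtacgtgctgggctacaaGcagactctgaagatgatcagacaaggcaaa

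Rpl30 itself had the opposite order, with 3168 and 3124 TPM in KO VOFD, 1686, 2287 and 1563 TPM in KO CD and 3178 and 2952 TPM in WT CD (limma adjusted p = 0.305). The sum of both genes was 3170 and 3124 TPM in KO VOFD and 2655, 3630 and 2380 TPM in KO CD, so the groups overlapped in the sum. Gm12191 held 0.0637% and 5.249e-06% of that sum in KO VOFD, against 36.5%, 37.0% and 34.3% in KO CD. How reads were assigned between the copies is not given here, and what the split reflects was not tested.

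**Figure D2:**
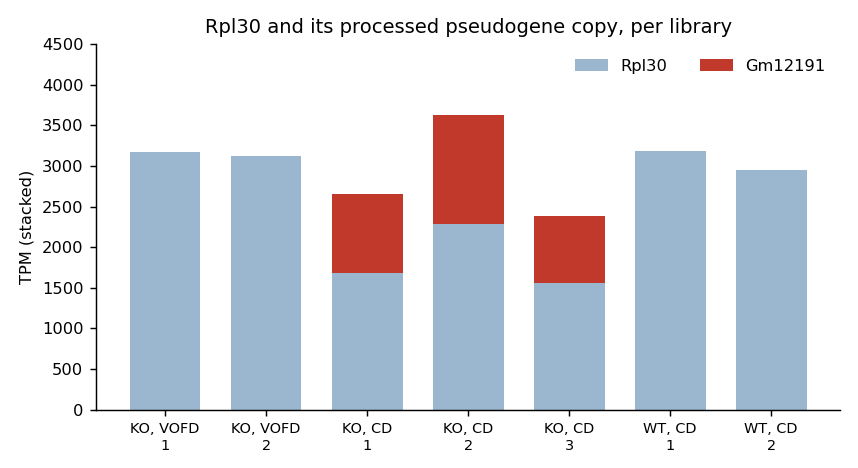
Stacked TPM of Rpl30 and its pseudogene copy Gm12191 in each of the 7 libraries. The Gm12191 share is visible only in the 3 KO CD libraries, where it was between 34.3% and 37.0% of the sum.

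Luteal cell genes split into a few that were far higher in KO VOFD and a majority that were not. Of 21 luteal genes tested, 2 rose (Ptgfr and Akr1c18) and 0 fell, 14 had a positive fold change, and the median was 0.41 beside -0.10 for all genes. Members whose groups did not overlap numbered 5 higher and 0 lower, where 8.68% and 17.9% of all genes did. Sfrp4, which encodes a secreted WNT antagonist made by luteal cells, was at 681 and 472 TPM in KO VOFD, at 41.1, 5.26 and 65.4 TPM in KO CD and at 522 and 1068 TPM in WT CD (log2 fold change 4.45, limma adjusted p = 0.227). The knockout groups did not overlap, although the KO CD libraries varied widely among themselves. Lhcgr, the luteinising hormone receptor gene, was at 162 and 81.9 TPM against 55.4, 33.3 and 20.3 TPM (1.75, adjusted p = 0.371). In bulk tissue, fewer luteal cells and less RNA per luteal cell cannot be told apart.

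The genes of cholesterol side-chain cleavage did not separate the diets. Star, whose product carries cholesterol into mitochondria, was at 265 and 220 TPM in KO VOFD and at 603, 93.7 and 61.9 TPM in KO CD. Cyp11a1, which encodes the side-chain cleavage enzyme, was at 1993 and 1494 TPM against 2481, 250.3 and 602 TPM. For both genes KO CD library 1 was above the KO VOFD libraries and the other 2 KO CD libraries below. Timp1, a metalloproteinase inhibitor gene, had the same order, at 150 and 172 TPM against 203, 29.3 and 32.2 TPM. Star and Cyp11a1 were chosen after their values were seen. Without KO CD library 1 the median of the luteal list was 0.95, and 3 members rose. It was 0.18 without KO CD library 2, 0.30 without KO CD library 3 and 0.24 without KO VOFD library 1.

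Enzymes that convert steroids into each other showed no common direction. Of 14 such genes 1 rose (Akr1c18), 0 fell, 7 had a positive fold change and the median was 0.00. Srd5a1, a steroid 5-alpha reductase gene, was at 27.1 and 19.7 TPM in KO VOFD, 45.8, 48.7 and 45.8 TPM in KO CD and 17.0 and 17.7 TPM in WT CD (log2 fold change -0.99, limma adjusted p = 0.218). Srd5a2, which encodes the second such reductase and was chosen after its values were seen, had the reverse order, with 35.7 and 40.0 TPM in KO VOFD, 15.3, 5.01 and 6.33 TPM in KO CD and 25.0 and 27.1 TPM in WT CD (2.12, adjusted p = 0.179). Neither pair of knockout groups overlapped, which the naming rule required of Srd5a1. Hsd17b7, whose enzyme serves both sterol and oestradiol synthesis, was at 72.6 and 17.0 TPM against 5.56, 6.14 and 8.00 TPM (2.28, adjusted p = 0.409). Hsd11b1, which encodes an enzyme that reactivates glucocorticoids, was at 1.89 and 2.40 TPM against 5.61, 3.61 and 6.86 TPM (-0.99, adjusted p = 0.484).

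Genes of sterol synthesis were higher in KO VOFD along most of the pathway, although none passed the threshold over all genes. The early steps form the mevalonate pathway, from acetyl-CoA to squalene. Of its 10 enzymes 0 passed, 9 had a positive fold change, 7 had an unadjusted p under 0.05 with a higher level (2.86% over all genes) and the median was 0.91. Idi1, which encodes an isomerase of isoprenoid units, was at 58.6 and 55.5 TPM in KO VOFD, 21.7, 12.6 and 14.5 TPM in KO CD and 38.7 and 64.4 TPM in WT CD (log2 fold change 1.78, SE 0.28, limma adjusted p = 0.128). Fdft1, which encodes squalene synthase, was at 53.5 and 53.3 TPM against 24.5, 31.6 and 32.9 TPM (0.84, adjusted p = 0.320). Mvd, a decarboxylase gene, was at 17.6 and 13.2 TPM against 6.92, 5.97 and 8.01 TPM (1.04, adjusted p = 0.371), and Fdps, the farnesyl diphosphate synthase gene, at 155 and 142 TPM against 94.2, 51.6 and 81.3 TPM (1.00, adjusted p = 0.402). In these 4 genes both KO VOFD libraries were above all 3 KO CD libraries, which the naming rule required of Idi1. Mvk, the mevalonate kinase gene, chosen after its values were seen, had groups that overlapped, at 13.5 and 15.4 TPM against 15.7, 13.4 and 20.0 TPM.

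The later steps lead from squalene to cholesterol. Of 13 genes 0 passed, 11 had a positive fold change and the median was 0.63. An unadjusted p under 0.05 with a higher level was found for 6 (2.86% over all genes). Msmo1, whose enzyme removes methyl groups from sterols, was at 180 and 156 TPM in KO VOFD, 65.7, 47.5 and 67.6 TPM in KO CD and 126 and 163 TPM in WT CD (1.48, SE 0.21, limma adjusted p = 0.0900). Sc5d, which encodes sterol C5 desaturase, was at 87.5 and 78.4 TPM against 35.8, 34.9 and 41.0 TPM, and at 55.6 and 72.9 TPM in WT CD (1.14, adjusted p = 0.128). Cyp51, the lanosterol demethylase gene, was at 43.3 and 35.6 TPM against 15.9, 12.1 and 15.0 TPM (1.4, adjusted p = 0.149). KO VOFD libraries were thus above both WT CD libraries for Sc5d only among these 3. Not every later enzyme gene separated the groups. Dhcr7 was at 25.9 and 21.3 TPM against 29.9, 10.9 and 16.9 TPM, and Ebp at 24.6 and 24.6 TPM against 27.6, 20.0 and 22.1 TPM, both chosen after their values were seen. Leaving out KO CD library 2 brought the median of the later steps to 0.24 and that of the mevalonate enzymes to 0.76.

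**Figure D3:**
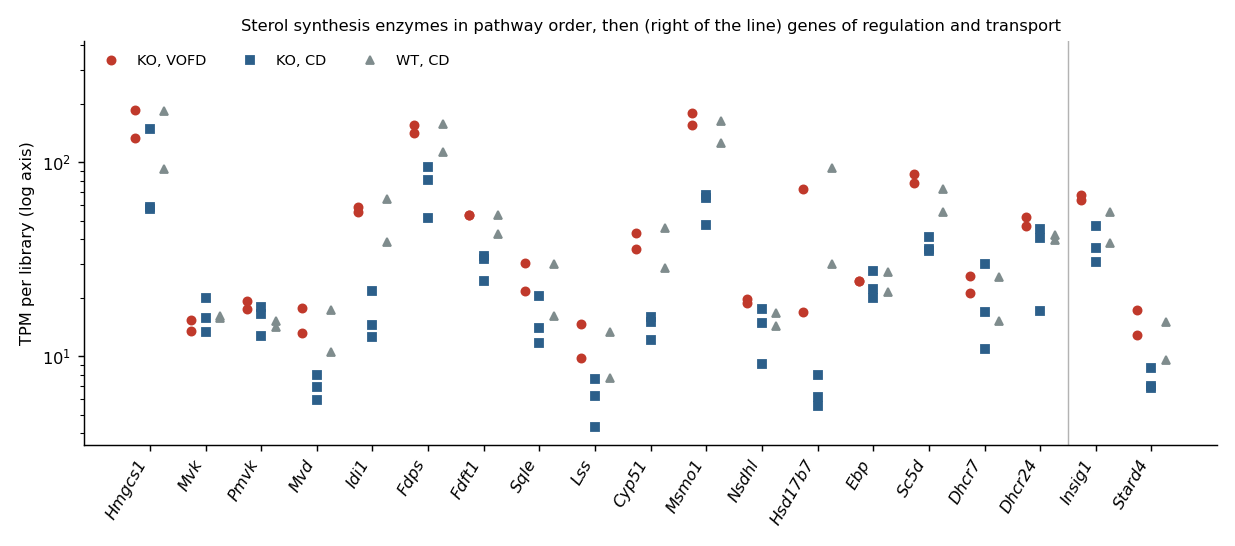
TPM per library (points, log axis) for 17 sterol synthesis enzymes in pathway order, and for Insig1 and Stard4 to the right of the line. Circles are KO VOFD, squares KO CD and triangles WT CD. Idi1, Msmo1, Cyp51 and Sc5d show KO VOFD above KO CD with no overlap, and Mvk, Pmvk, Ebp and Dhcr7 show the groups intermixed.

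Hmgcs1 encodes the synthase at the entry of the pathway and was chosen after its values were seen, for the sterol regulatory element in its promoter. It was at 186 and 133 TPM in KO VOFD, 148, 59.0 and 57.5 TPM in KO CD and 92.2 and 184 TPM in WT CD (log2 fold change 0.98, limma adjusted p = 0.623), so KO CD library 1 lay between the KO VOFD libraries. The element TCACCCCAC was searched on both strands in windows from 250 bases before to 50 after the start of each gene (RefSeq, GRCm38.p6). It was found in 1 of 7 mevalonate genes with a window, in 0 of 11 genes of the later steps and in 0 of 11 genes of SREBP2 control, and in 0.614% of all 27025 genes with a window. The window of Hmgcs1 is shown over chr13:119690184-119690252, plus strand, with the element in capitals, because it is the one match among these lists.
Hmgcs1: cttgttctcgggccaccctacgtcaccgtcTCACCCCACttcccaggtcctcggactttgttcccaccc

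Genes of sterol sensing and uptake were mixed. Of 13 tested 0 passed, 8 had a positive fold change, and the median was 0.07. Stard4, a sterol carrier gene, was at 17.4 and 12.9 TPM against 8.71, 7.02 and 6.87 TPM in KO CD (0.91, limma adjusted p = 0.450). Insig1, which encodes a protein that holds SREBPs in the endoplasmic reticulum, was at 64.0 and 67.9 TPM against 30.8, 36.3 and 47.0 TPM (0.80, adjusted p = 0.481). Stard4 and Insig1 had no overlap and were higher in KO VOFD. Scap, the SREBP escort gene, was at 57.8 and 56.6 TPM against 85.7, 80.9 and 116 TPM (-0.69, adjusted p = 0.484), lower without overlap.

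LXR target and sterol export genes showed no common direction. Of 16 tested 0 passed, 6 had a positive fold change and the median was -0.04. Abca1, which encodes the exporter of cholesterol to apolipoprotein A-I, was at 39.6 and 30.5 TPM in KO VOFD, 93.2, 47.7 and 66.0 TPM in KO CD and 18.5 and 25.2 TPM in WT CD (log2 fold change -0.91, limma adjusted p = 0.516). KO VOFD lay between the other groups for Abca1. Apoe, the apolipoprotein E gene, was at 1352 and 1103 TPM in KO VOFD, 1259, 1790 and 2298 TPM in KO CD and 922 and 925 TPM in WT CD (-0.50, adjusted p = 0.642). Cd5l, a macrophage gene, was at 1.76 and 2.29 TPM against 0.304, 1.23 and 0.590 TPM (0.86, adjusted p = 0.584).

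Genes that store or release lipid were mostly lower in KO VOFD. Of 17 genes of sterol esters, lipid droplets and lysosomal lipid 0 passed, 3 had a positive fold change, 1 was higher and 6 were lower without overlap (8.68% and 17.9% over all genes), and the median was -0.32. Dgat1, a triglyceride synthesis gene, was at 23.6 and 23.1 TPM against 35.1, 38.4 and 32.8 TPM in KO CD (-0.58, limma adjusted p = 0.472). Pnpla2, which encodes adipose triglyceride lipase, was at 42.1 and 65.9 TPM against 140, 76.3 and 79.3 TPM (-0.83, adjusted p = 0.584). Plin4, another member, went the other way, with a log2 fold change between 0.63 and 1.24 over 19 alternatives. Cidec, Plin1, Lipe and Plin4 are in the adipose list too, and the adipose list, given further on, was lower in KO VOFD as well. The part of that tissue in these values was not tested. Of 14 fatty acid synthesis genes 0 passed, 8 had a positive fold change and the median was 0.05.

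Lipg, the endothelial lipase gene, stood alone in its family. It was at 80.3 and 32.0 TPM in KO VOFD, 3.64, 1.88 and 2.92 TPM in KO CD and 35.5 and 94.6 TPM in WT CD (log2 fold change 3.79, SE 0.48, limma adjusted p = 0.0694). Among 7 lipase family and regulator genes 0 passed, 2 had a positive fold change and the median was -0.36, or -0.15 without KO CD library 1. Gpihbp1, which encodes the endothelial anchor of lipoprotein lipase, was at 8.44 and 10.3 TPM against 17.7, 16.4 and 20.8 TPM (-0.90, adjusted p = 0.301).

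Among prostaglandin genes only Ptgfr passed. Of 18 tested 1 rose, 0 fell, 6 had a positive fold change and the median was -0.07. Ptgds, a prostaglandin D synthase gene, was at 20.3 and 16.2 TPM in KO VOFD, 5.82, 5.05 and 4.86 TPM in KO CD and 9.41 and 12.9 TPM in WT CD (1.62, SE 0.22, limma adjusted p = 0.0900), and KO VOFD was highest of the 3 groups.

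Among genes of the RAMP, CGRP and adrenomedullin receptors, Ramp1 rose and 6 of 7 had a positive fold change, with a median of 0.37, or 0.64 without KO CD library 2. Calcrl, the receptor gene with which RAMP proteins pair, was at 22.5 and 17.6 TPM against 13.7, 12.0 and 11.2 TPM (0.66, limma adjusted p = 0.571). Adm, the ligand gene adrenomedullin, was at 8.29 and 5.38 TPM against 3.11, 5.16 and 2.29 TPM (0.82, adjusted p = 0.596). Both had no overlap. Of 24 TNF receptor and ligand genes 1 rose (Tnfrsf9), 0 fell and the median was 0.02. Tnfsf9, the gene of the ligand of 4-1BB, was chosen after its values were seen and was at 0.646 and 1.13 TPM against 1.04, 0.846 and 0.701 TPM, with groups that overlapped.

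WNT genes as a list were centred near 0, with 16 of 31 fold changes positive, 0 past the threshold and a median of 0.03, but several single genes were well above their KO CD levels. Lgr5, the R-spondin receptor gene, was at 38.4 and 38.8 TPM in KO VOFD, 15.4, 12.6 and 10.2 TPM in KO CD and 29.9 and 39.5 TPM in WT CD (1.55, SE 0.22, limma adjusted p = 0.0900). Wnt10b was at 46.2 and 13.6 TPM against 6.95, 0.892 and 2.47 TPM (2.81, adjusted p = 0.328). Wnt2b was at 55.7 and 67.1 TPM against 40.9, 25.4 and 30.2 TPM (0.93, adjusted p = 0.333). These ligand genes and Lgr5 had no overlap between the knockout groups, which the naming rule required of Lgr5. Over the whole list 6 genes were higher and 5 lower without overlap, where 8.68% and 17.9% of all genes were.

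Several further genes were high in KO VOFD without passing the threshold. S100 genes encode small calcium-binding proteins. In a list of 11 that leaves out the neutrophil genes S100a8 and S100a9, all had a positive fold change, with 0 past the threshold and a median of 0.45, or 0.70 without KO CD library 1. S100a9 and S100a8, the second chosen after its values were seen, had fold changes of -2.15 and -1.84 (limma adjusted p = 0.623 and 0.648), and both fell without KO CD library 1 (0.0252 and 0.0360). S100a4 was at 116 and 141 TPM in KO VOFD, 37.1, 20.8 and 40.3 TPM in KO CD and 171 and 139 TPM in WT CD (1.99, SE 0.28, limma adjusted p = 0.0900). S100g, which encodes the calcium carrier calbindin-D9k, was at 45.3 and 40.5 TPM against 3.59, 1.05 and 16.3 TPM (3.01, adjusted p = 0.330). Saa2, an acute phase gene, was at 22.8 and 7.63 TPM against 1.06, 0 and 0 TPM (adjusted p = 0.0900). The acute phase list leaned the other way. Of its 13 genes tested 0 passed, 4 had a positive fold change and 9 a negative one, and the median was -0.50. Cdkn2b, the gene of a cell cycle inhibitor, was at 16.3 and 13.3 TPM against 1.58, 0.729 and 3.03 TPM (2.58, adjusted p = 0.128). Kctd14 was at 223 and 261 TPM against 120.2, 131 and 126 TPM (0.93, adjusted p = 0.128), and the crystallin gene Crybb1 at 13.2 and 8.49 TPM against 3.22, 1.29 and 1.06 TPM (2.10, adjusted p = 0.139). The naming rule required groups without overlap of S100a4, Saa2, Cdkn2b, Kctd14 and Crybb1. The groups of S100g, named from its list, did not overlap either, where 8.68% of all genes were higher without overlap.

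No protein-coding gene passed as lower in KO VOFD by limma. At an unadjusted p under 0.05 there were 787 lower genes. Ccl8, a chemokine gene of monocytes and macrophages, was at 13.6 and 13.9 TPM in KO VOFD, 42.3, 87.3 and 101 TPM in KO CD and 14.1 and 12.6 TPM in WT CD (log2 fold change -2.31, SE 0.34, limma adjusted p = 0.0961). KO VOFD and WT CD were thus close for Ccl8, and all KO CD libraries higher. The chemokine list did not share this direction. Of 21 chemokine genes tested 0 passed, 9 had a positive fold change and the median was -0.18. Without overlap 4 were higher and 4 lower, where 8.68% and 17.9% of all genes were. Ccl2 went the other way, with a log2 fold change between 0.63 and 2.13 over 19 alternatives. Kcnt1, a potassium channel gene, was at 7.92 and 4.44 TPM against 22.3, 20.2 and 22.5 TPM (-1.70, adjusted p = 0.128). Odc1, the gene of the first enzyme of polyamine synthesis, was at 90.2 and 91.0 TPM against 164, 150.2 and 208 TPM (-0.92, adjusted p = 0.232). Coasy, the coenzyme A synthase gene, was at 31.8 and 32.9 TPM against 49.9, 64.8 and 66.4 TPM (-0.87, adjusted p = 0.267).

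The remaining lower genes named by the same rule had adjusted p between 0.179 and 0.291 by limma. Lig1, the DNA ligase gene of replication, was at 4.60 and 3.89 TPM in KO VOFD, 16.2, 14.8 and 37.6 TPM in KO CD and 12.7 and 16.7 TPM in WT CD, so KO VOFD was below both groups on CD. The homeobox gene Cphx3 had the same order, at 0.162 and 0.0259 TPM, against 5.31, 8.6 and 2.34 TPM in KO CD and 4.06 and 12.3 TPM in WT CD. Chaf1b, a chromatin assembly gene, was at 5.07 and 4.92 TPM against 10.3, 14.8 and 17.1 TPM. Nr4a1, an immediate early nuclear receptor gene, was at 10.7 and 7.83 TPM against 26.3, 33.0 and 17.3 TPM. Wdr90, Acsm3, Masp1 and Pacsin3 had log2 fold changes between -1.28 and -0.84.

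**Figure D4:**
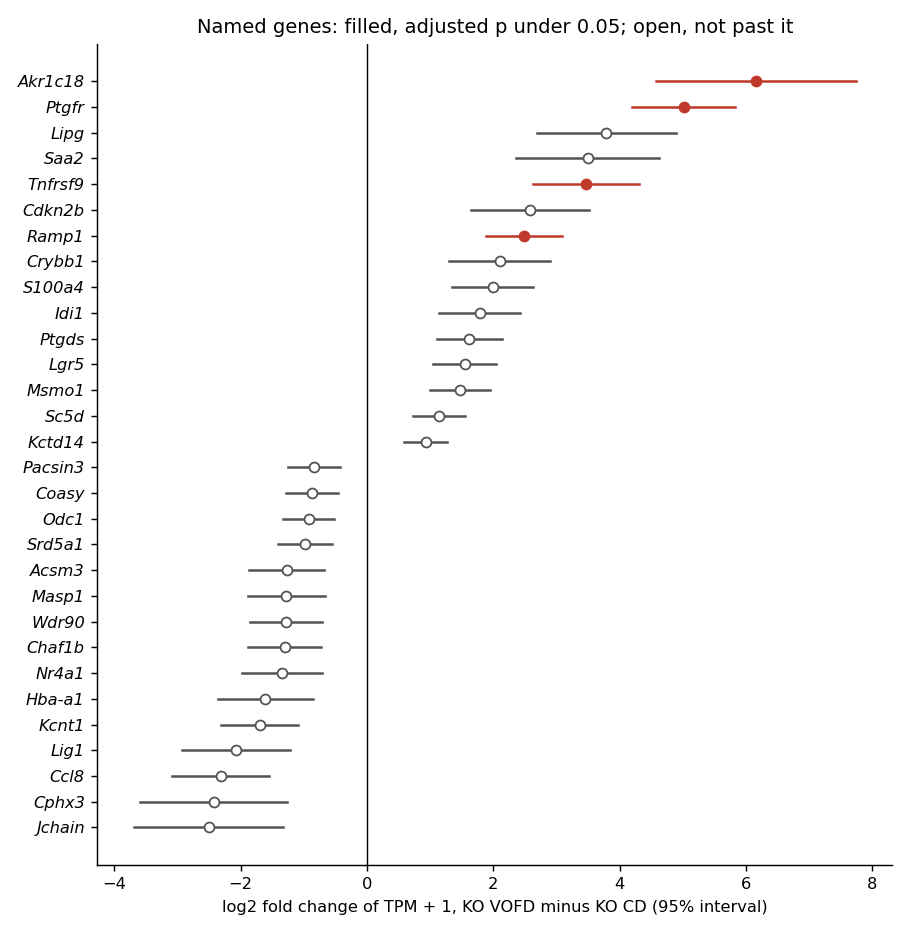
Log2 fold change of TPM + 1 (KO VOFD minus KO CD) with its 95% interval from the fit, for the 30 named genes. Filled points passed the adjusted threshold (Akr1c18, Ptgfr, Tnfrsf9 and Ramp1), and open points did not.

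Genes of DNA replication and mitosis had 23 of 23 fold changes negative, with 0 past the threshold and a median of -0.64. Of these, 13 were lower without overlap (17.9% over all genes). Their summed level was 913 and 883 TPM in KO VOFD and 919, 1252 and 1531 TPM in KO CD. KO CD library 1 was thus close to KO VOFD in the sum, and KO CD libraries 2 and 3 were higher. Rrm2, a ribonucleotide reductase gene, was at 11.6 and 9.40 TPM in KO VOFD, 18.0, 23.9 and 28.6 TPM in KO CD and 10.0 and 14.6 TPM in WT CD (-1.07, limma adjusted p = 0.342). Cdc20, which encodes an activator of mitotic exit, was at 17.3 and 14.9 TPM against 22.1, 33.3 and 51.7 TPM (-1.02, adjusted p = 0.516). Both genes were highest in KO CD library 3, and without that library the list median was -0.38.

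Granulosa cell genes were mostly lower in KO VOFD than in KO CD libraries 2 and 3. Of 19 tested 0 passed, 5 had a positive fold change and the median was -0.50. The summed level was 2819 and 3757 TPM in KO VOFD and 2118, 6270.1 and 7057 TPM in KO CD, so KO CD library 1 lay below KO VOFD and the others above. Inhbb, an inhibin and activin subunit gene, was at 61.0 and 94.1 TPM against 67.7, 406 and 441 TPM (-1.59, limma adjusted p = 0.623). Amh, a hormone gene of small growing follicles, was at 105 and 78.8 TPM against 61.5, 170 and 380 TPM (-0.79, adjusted p = 0.770). Kitl, which encodes the KIT ligand, had no overlap, with 37.1 and 44.3 TPM against 57.1, 54.1 and 79.4 TPM (-0.61, adjusted p = 0.587). Without KO CD library 1, 4 granulosa genes fell (Inhbb, Inha, Dhh and Ihh, of which Ihh was chosen after its values were seen) and the median was -0.95. Without KO CD library 3 it was -0.16.

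Oocyte genes and the theca gene Cyp17a1 were lowest in KO CD library 1. Of 26 oocyte genes 0 passed, 25 had a positive fold change and the median was 0.45. The summed level was 1374 and 1306 TPM in KO VOFD, and 556, 1451 and 1080.2 TPM in KO CD. The oocyte median was 0.09 without KO CD library 1 and 0.73 without KO CD library 2. Cyp17a1, which encodes the enzyme that makes androgens in theca cells, was at 131 and 186 TPM in KO VOFD, and 3.53, 150 and 81.9 TPM in KO CD (limma adjusted p = 0.687). Of 14 theca and interstitial genes 0 passed, with a median of -0.13, or 0.08 without KO CD library 3.

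Immune cell genes were mostly lower in KO VOFD, and 0 passed in any of these lists. Of 18 T, B, NK and plasma cell genes 2 had a positive fold change, 9 were lower without overlap (17.9% over all genes) and the median was -0.41, with summed levels of 218 and 238 TPM in KO VOFD and 315, 631 and 708 TPM in KO CD. Immunoglobulin genes led this list. Igkc, the kappa light chain constant gene, was at 19.1 and 27.3 TPM against 61.9, 236 and 206 TPM, and 30.2 and 20.5 TPM in WT CD (-2.61, limma adjusted p = 0.240). Jchain, which joins secreted immunoglobulin, was at 3.53 and 6.36 TPM against 13.7, 58.3 and 39.5 TPM (-2.51, adjusted p = 0.267). Of 8 neutrophil and mast cell genes all had a negative fold change with a median of -1.30, with sums of 34.0 and 40.4 TPM against 51.6, 211 and 119 TPM. Tpsb2, a mast cell tryptase gene, was at 4.29 and 4.05 TPM against 12.4, 19.1 and 6.96 TPM (-1.32, adjusted p = 0.450), and Retnlg, a neutrophil gene, was listed at 0 in KO VOFD library 2. Macrophage genes differed less, with a median of -0.30 over 19 genes and sums of 1185 and 1187 TPM against 1410.3, 1311 and 1447 TPM. Cd68 was at 18.0 and 17.0 TPM against 24.1, 23.9 and 26.6 TPM (-0.48, adjusted p = 0.594).

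Markers of blood and fat were lower in KO VOFD as well. Of 7 erythroid genes tested 6 were lower without overlap (17.9% over all genes), 0 passed and the median was -1.36, and the summed level was 752 and 807 TPM in KO VOFD, 2252, 3124 and 1328 TPM in KO CD and 891 and 501 TPM in WT CD. Hba-a1, an alpha globin gene, was at 89.3 and 90.4 TPM against 265, 399 and 199 TPM (-1.61, limma adjusted p = 0.267). Of 16 adipose genes 3 had a positive fold change, 0 passed and the median was -0.90, with sums of 726 and 1574 TPM in KO VOFD, 3766, 2562 and 1721 TPM in KO CD and 931 and 344 TPM in WT CD. The adipose median was -0.53 without KO CD library 1, -0.29 without KO VOFD library 1 and -1.47 without KO VOFD library 2. Cfd, the adipsin gene, was at 138 and 223 TPM against 828, 868 and 327 TPM (-1.81, adjusted p = 0.481). Car3, an adipocyte carbonic anhydrase gene, lay between 64.9 and 634 TPM over all libraries, and Ucp1 and Cidea were too low to be tested. Smooth muscle and pericyte genes had a median of -0.39 over 15 genes, or -0.20 without KO CD library 1, with a sum in KO CD library 1 of 1808 TPM, where KO VOFD had 898 and 936 TPM and KO CD libraries 2 and 3 had 1038 and 915 TPM. Of 11 oviduct epithelial genes 0 passed, and the median was -0.29, or 0.10 without KO CD library 3. Their summed level was 156 and 217 TPM in KO VOFD and 156, 202 and 601 TPM in KO CD. WT CD had 142 and 182 TPM, so KO CD library 3 was highest of the 7. The part of blood, fat, muscle or oviduct next to the ovary in any result was not tested. Endothelial genes had a median of 0.03 over 22 genes, and Angpt2, which encodes a ligand of the vessel receptor TIE2, was at 27.9 and 27.0 TPM against 7.65, 11.3 and 15.5 TPM (1.24, adjusted p = 0.291).

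**Figure D5:**
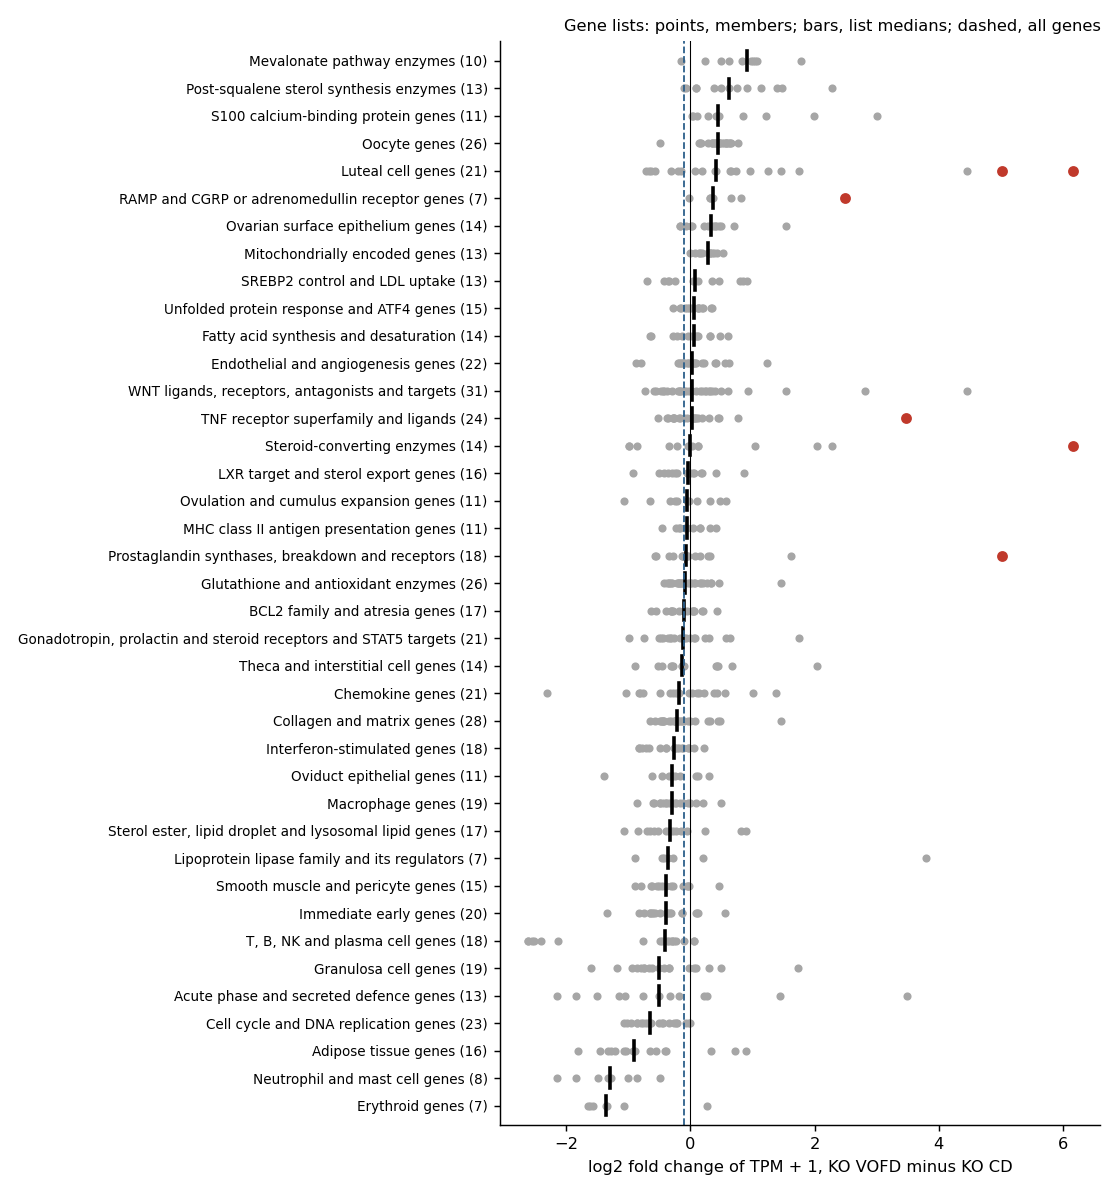
Log2 fold change of TPM + 1 (KO VOFD minus KO CD) of each tested member of the 39 gene lists, sorted by list median (black bars), with the number tested in brackets. Red points passed the adjusted threshold, and the dashed line is the median of all genes, -0.10. Mevalonate and later sterol synthesis enzymes are at the top, and neutrophil, mast cell and erythroid genes at the bottom.

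Among the libraries left out in turn, KO CD library 1 moved the number of calls most. Without it 98 genes passed by limma, 49 higher and 49 lower, and all 7 genes of the full comparison were among them. The sterol synthesis genes Idi1 (adjusted p = 0.0173) and Msmo1 (0.0269) then rose, as did Lipg (0.0235), Lgr5 (0.0172), Ptgds (0.0258), S100a4 (0.0258), Saa2 (0.0152), Crybb1 (0.0113), Wnt2b (0.0498) and Srd5a2 (0.00359). Ccl8 (0.00359), Igkc (0.00359), Jchain (0.00783) and Chaf1b (0.0345) fell. Timp1 rose (0.00646), with KO CD library 1, which had the highest knockout level of that gene, left out. Cdkn2b (0.0580), Sc5d (0.0554), Lig1 (0.0554) and Srd5a1 (0.0804) did not pass in that fit either.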

How the data were processed

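RNA from mouse ovaries was sequenced in 7 libraries. Gene levels were used as deposited by the authors, in TPM (length-corrected shares of transcripts), on a build that the submitters' processing notes give as GRCm38. No source used here states the aligner, strand setting or counting rule, and TPM keeps no depth, so no counting interval is given. Each of the 34866 gene IDs was looked up in GENCODE M21 (34652 matched). Libraries were grouped by their titles. Genes with at least 1 TPM in at least 2 of 7 libraries were tested with limma 3.58.1 in R 4.3.3 on log2(TPM + 1), with 3 group means, 4 residual degrees of freedom, a variance trend and the 2-sided contrast KO VOFD minus KO CD. P-values were adjusted by Benjamini-Hochberg over 15487 genes, with a threshold of 0.05. A fold change on this scale understates that of low genes. The fit was tested on 5 simulated data sets, each with 200 genes changed. It recovered 28.4%, 77.3% and 97% of changes of 1, 2 and 4 on the log2 scale, so most small changes were missed. On average 7 unchanged genes passed as well. The simulated noise was independent between genes, so no simulated library stood apart as the KO CD libraries did.

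Genes were named by a rule. In each direction it took up to 15 genes whose knockout groups did not overlap and whose higher group averaged at least 5 TPM, first those past the threshold by fold change and then by smallest p. The rule skipped pseudogenes, unnamed models, ribosomal protein genes and immunoglobulin segments, except those past the threshold. From each of 39 gene lists it took up to 4 members with the smallest p. Some genes are not reported here. The comparison, the members and the lists were chosen with earlier results of these data known. Lists are described by counts and medians, without a test. Alternatives changed the pseudocount, the filter, the scaling, the libraries, the variance prior or the weights. Others added a replicate block or left out each library in turn. Some nearly repeat each other, so counts of alternatives passed are not counts of independent checks. Without either WT CD library that group adds no spread, so the fit is close to that of the 5 knockout libraries alone. The replicate block is close to leaving out KO CD library 3.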

Additional observations from a re-analysis of the deposited data

How the results depend on the processing

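The count of 7 genes past the threshold was 4 with a pseudocount of 0.1 TPM, 4 with the 5 knockout libraries alone, and 179 (87 higher, 92 lower) with array weights, which weighted KO CD libraries 1 and 3 at 0.384 and 0.290. Leaving out each library in turn gave 3 to 98 genes. It was 3 without KO VOFD library 1 or KO CD library 2, 4 without KO VOFD library 2 or either WT CD library, and 98 without KO CD library 1. Rescaling without mitochondrial, globin and pseudogene rows gave 6 genes, 6 higher and 0 lower, where the main split was 6 and 1. That setting removes Gm12191 by construction. The other alternatives gave 5 to 9. The replicate block gave 7 genes (5 higher, 2 lower), of which 4 were among the main 7. Leaving out KO CD library 3, the only library numbered 3, gave the same counts. The log2 fold change of Ptgfr was 5.27 in both settings. The block in effect leaves that library out, so these settings are not separate checks. Same-numbered knockout libraries correlated at 0.0416 and 0.0458 in their deviations from the group means. Same-numbered KO VOFD and WT CD libraries correlated at -0.186. The deviations of 2 libraries in a group mirror each other, so these values cannot decide whether the numbers mark pairs. The numbers were not taken as pairs. Of 2758 values of single genes under the alternatives, 0 reversed, 38 lost and 99 gained a call. These values cover 146 genes, mostly named for a small p or for groups that did not overlap, so few were likely to reverse. Mvk, Ebp, Dhcr7 and Tnfsf9, whose groups overlapped, were not among them. List medians near 0 (SREBP2 control, LXR, fatty acid, prostaglandin, WNT, TNF, endothelial and steroid-converting genes) changed sign under at least 1 alternative. So did those of unfolded protein response, MHC class II, theca, matrix, acute phase, ovulation, oviduct, apoptosis, antioxidant and hormone receptor genes. The cause of these shifts was not tested. With 2 and 3 libraries a group and no depth, low genes are measured least well.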

Other observations

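The 4 heat shock genes given here were chosen after their values were seen and belong to no list. Dnaja1, which encodes a co-chaperone, was at 678 and 596 TPM in KO VOFD, 284, 348 and 331 TPM in KO CD and 388 and 559 TPM in WT CD (log2 fold change 0.99, limma adjusted p = 0.227). Hsp90aa1, the inducible HSP90 gene, was at 892 and 822 TPM against 500.4, 563 and 453 TPM in KO CD and 646 and 792 TPM in WT CD (0.77, adjusted p = 0.267). Chordc1, an HSP90 partner gene, was at 114 and 95.5 TPM against 44.6, 61.1 and 33.4 TPM (1.20, adjusted p = 0.321). Hspa1b, an inducible HSP70 gene, was at 31.4 and 27.8 TPM against 8.58, 10.6 and 15.7 TPM (1.31, adjusted p = 0.484). For Dnaja1, Hsp90aa1, Chordc1 and Hspa1b the KO VOFD libraries were the highest of all 7, and none passed the threshold.

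Lists not described so far held 0 calls each. Unfolded protein response genes had a median of 0.05 over 15 genes, MHC class II genes -0.05 over 11 (-0.43 without KO CD library 1, 0.41 without 3), and collagen and matrix genes -0.21 over 28 (-0.03 without KO CD library 1, 0.00 without 3). Immediate early genes had 16 of 20 negative fold changes and a median of -0.39, and mitochondrially encoded genes 12 of 13 positive and 0.29, or 0.12 without KO CD library 3. Interferon-stimulated genes had 16 of 18 negative and a median of -0.26, or -0.12 without KO CD library 1. Ly6d, a surface protein gene chosen after its values were seen, was at 15.8 and 21.0 TPM in KO VOFD, above both KO CD (8.08, 1.84 and 1.98 TPM) and WT CD (4.69 and 2.90 TPM; limma adjusted p = 0.301).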
